A study of Mus musculus with 3 samples.

Results

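The genes described here are Noct and 9 genes of the circadian clock, Arntl, Clock, Per1, Per2, Per3, Cry1, Cry2, Nr1d1 and Dbp. They were chosen by name, and all 10 members were found among the 32285 genes of the count files. The cells came from the stromal vascular fraction of the subcutaneous inguinal fat of 3 male wild-type C57BL/6J mice aged 8 weeks, and were sorted as negative for CD31, a marker of endothelium, and for CD45, a marker of leukocytes. Each mouse gave 1 single-cell library (10x Genomics, 3′ end), there was 1 condition, and the time of day at which the fat was taken is not given in the sources used here. The levels of clock genes therefore stand for 1 unknown clock time per mouse, and no rhythm could be measured.

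Cells were placed in 3 gates by raw counts of unique molecular identifiers (UMIs, each 1 captured RNA molecule). Progenitors had at least 3 UMIs of Dpp4 and Pi16 together and at most 1 of Icam1 and Fabp4. Preadipocytes had at least 4 UMIs of Icam1 and Fabp4 together and at most 1 of Dpp4. Regulatory cells, named after a population described to restrain adipogenesis, had Clec11a and Fmo2 and at most 1 UMI each of Fabp4 and Dpp4. Mice 1, 2 and 3 had 7399, 3169 and 9273 progenitors, 2278, 1394 and 1889 preadipocytes, and 270, 384 and 404 regulatory cells. UMIs were summed within each gate and mouse and are given per 1000000 UMIs of that sum (CPM).

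The labels of the gates were checked on marker lists without the gating genes. The 6 remaining progenitor markers summed to 2748 to 3777 CPM in progenitors and to at most 319 CPM in the other gates. The 6 remaining preadipocyte markers summed to 7891 to 10145 CPM in preadipocytes, 3031 to 3906 CPM in regulatory cells and 755 to 1070 CPM in progenitors. The 5 remaining regulatory markers summed to 2632 to 3626 CPM in regulatory cells and to at most 690 CPM in the other gates. Kept cells had median depths of 7392.5, 12192.5 and 6667 UMIs in mice 1, 2 and 3, and regulatory cells were the shallowest gate (4945, 10104.5 and 4575 UMIs). Pairs of libraries shared 52 to 81 barcodes. Endothelial markers summed to 31.2, 55.0 and 3.91 CPM in the preadipocytes of mice 1, 2 and 3 and to at most 8.54 CPM in the other gates, and adipocyte markers stayed at or below 1.31 CPM in every gate. Mural markers summed to 30.0 to 47.4 CPM in preadipocytes and to at most 12.4 CPM in the other gates. Without the cells that held an endothelial UMI, the numbers of clock genes called in each comparison below were the same.

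The circadian clock is a feedback loop of transcription. Arntl (BMAL1) and Clock form the activator that binds E-boxes, and it drives the Per and Cry genes, whose proteins return to block it. A second loop runs through Nr1d1 (REV-ERBα), which represses Arntl, and Dbp carries clock timing to genes with D-boxes. Noct (nocturnin) is a rhythmic gene related to the CCR4 deadenylases, known for NADPH phosphatase activity and for a role in adipogenesis and fat storage. In fat, clock genes cycle in adipocytes and in their precursors.

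Promoter sequence of the members was taken from RefSeq (GRCm38.p6), as 250 bases before and 50 bases from each annotated start. It was found for 9 of 10 members, and Per2 had no entry. Clock-related motifs and the cAMP response element were searched on both strands, namely the E-box CACGTG, the E′-box CACGTT, the D-box TTATGTAA or TTACGTAA, the ROR and REV-ERB half-site AGGTCA and the element TGACGTCA. Stretches upstream of the start are shown for the members that held an E-box, E′-box or D-box and for Noct, whose level differed most between gates, with the motif matches in capitals, each 5′ to 3′ on the strand of the gene. The E′-box appears as AACGTG and the half-site as TGACCT where the match lies on the opposite strand.
Per1, chr11:69098749-69098848, plus strand: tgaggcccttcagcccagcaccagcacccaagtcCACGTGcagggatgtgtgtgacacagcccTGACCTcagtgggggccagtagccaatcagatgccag
Cry1, chr10:85185085-85185164, minus strand: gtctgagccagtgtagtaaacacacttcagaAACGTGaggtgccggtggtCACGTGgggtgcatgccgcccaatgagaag
Cry2, chr2:92434200-92434269, minus strand: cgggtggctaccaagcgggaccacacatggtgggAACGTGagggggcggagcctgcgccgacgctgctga
Per3, chr4:151044801-151044890, minus strand: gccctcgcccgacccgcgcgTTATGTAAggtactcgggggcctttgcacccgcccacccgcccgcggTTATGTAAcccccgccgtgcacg
Nr1d1, chr11:98775378-98775437, minus strand: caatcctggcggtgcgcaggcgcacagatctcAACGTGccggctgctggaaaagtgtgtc
Noct, chr3:51224347-51224446, plus strand: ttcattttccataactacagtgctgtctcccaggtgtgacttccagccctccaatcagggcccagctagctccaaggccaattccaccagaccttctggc

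The E-box of Per1 began 166 bases and that of Cry1 60 bases before the start, and 7.15% of all 32851 promoters of this length held an E-box. Cry1, Cry2 and Nr1d1 held an E′-box, found in 4.68% of all promoters. Per3 held a pair of D-boxes that began 205 and 158 bases before its start, while 1.06% of all promoters held any D-box. The start used for Per1 lies inside the span that GENCODE gives the gene. Noct and Dbp held none of the motifs within these windows, which says nothing of sites farther away. The half-site was found in Per1, at 1 start of Clock and at 1 start of Arntl, and in 16.3% of all promoters, and no member held the cAMP response element (1.79% of all promoters). Some members have several starts, so shares counted by gene are the closer background. Of 27025 genes, 8.09% held an E-box at any start, 5.44% an E′-box and 1.23% a D-box. The half-site was held by 18.1% and the cAMP response element by 2.03%.

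Noct was the member that differed most between preadipocytes and progenitors. Noct (ENSMUSG00000023087) lies on chromosome 3 of GRCm38 from 51224447 to 51251644. Its level was 122, 98.8 and 144 CPM in the preadipocytes of mice 1, 2 and 3. In progenitors it was 34.5, 23.2 and 33.5 CPM. Regulatory cells lay between the other gates, at 40.7, 40.0 and 86.8 CPM, and no 2 gates overlapped. The regulatory level of mouse 3 was 2.17 times that of mouse 2, a wider spread than in the other gates.

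**Figure D1:**
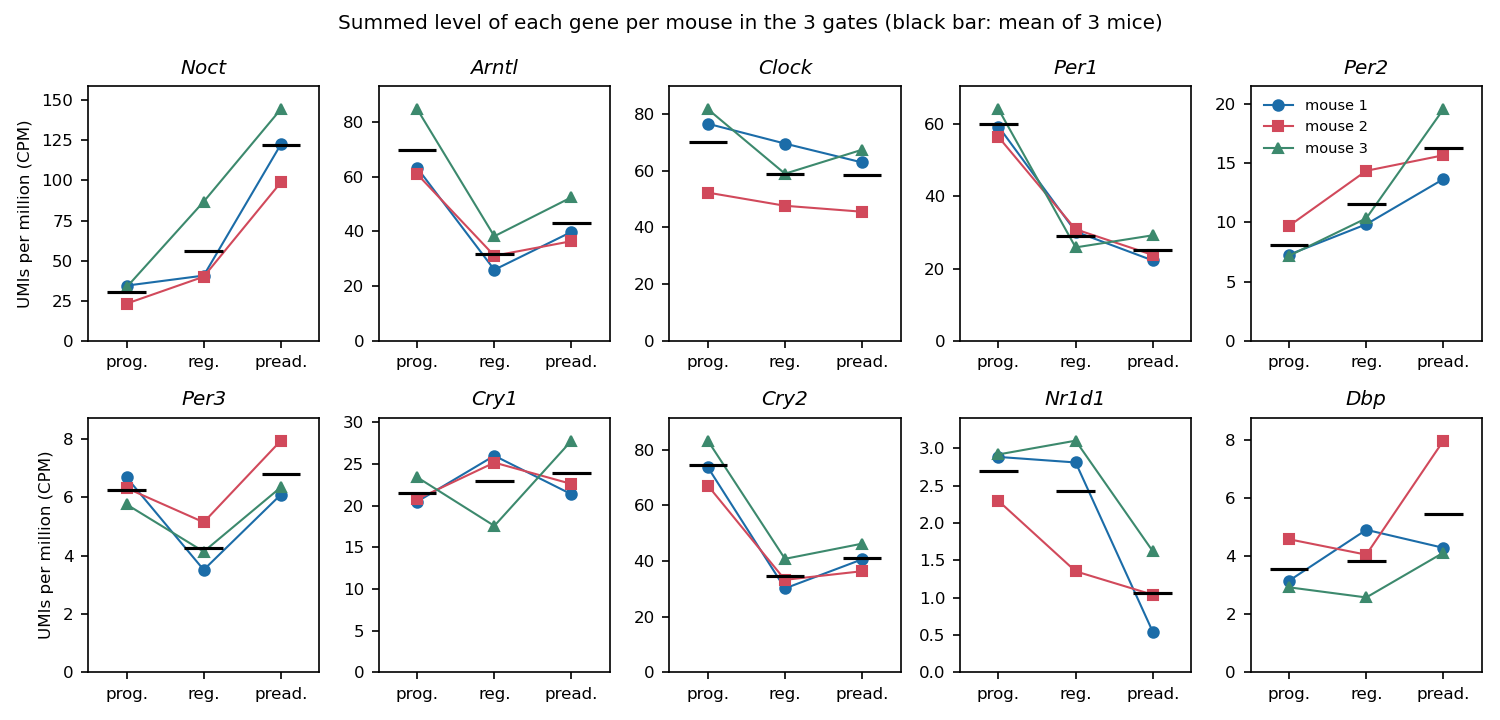
Summed level of each of the 10 genes (y axis, CPM, linear from 0) in progenitors, regulatory cells and preadipocytes, with 1 point per mouse joined across gates and a black bar at the mean of 3 mice. Noct and Per2 stood highest in preadipocytes in each mouse, and Arntl, Per1 and Cry2 stood highest in progenitors in each mouse.

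The mean of Noct was 122 ± 22.8 CPM (SD, n = 3 mice) in preadipocytes and 30.4 ± 6.22 CPM in progenitors. The log2 difference was 1.95 with an SE of 0.114 (edgeR adjusted p = 2.29e-08). The quasi-likelihood test of edgeR was used, with the mouse as a block and Benjamini-Hochberg adjustment over all genes tested. Each SE of a log2 fold change was derived from the F statistic of this test and does not measure the spread between mice. Regulatory cells (55.8 ± 26.8 CPM) were higher than progenitors by 0.87 on the log2 scale (± 0.154 SE, edgeR adjusted p = 0.000657). Within mice 1, 2 and 3 this log2 difference was 0.23, 0.76 and 1.35. Regulatory cells were lower than preadipocytes, with a log2 fold change of -1.08 (± 0.145 SE, edgeR adjusted p = 0.000156). The study named Noct as a marker within its Icam1 cells on these same libraries. The tests of Noct between gates, and its place in the counts of members called below, are therefore not independent evidence. The difference between preadipocytes and progenitors was also one in the share of cells. A Noct UMI was found in 45.4% ± 3.58 of preadipocytes, 19.5% ± 6.18 of regulatory cells and 17.6% ± 0.82 of progenitors (SD, n = 3 mice).

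Since these shares depend on depth, each cell was thinned to 3000 UMIs and kept the gate of its full counts. Shallower cells were left out, 570, 63 and 803 progenitors, 59, 35 and 67 preadipocytes and 61, 42 and 109 regulatory cells of mice 1, 2 and 3. The shares then were 24.5% ± 5.82 in preadipocytes, 12% ± 7.25 in regulatory cells and 7.70% ± 2.05 in progenitors, the same order of means. In mouse 1 the share in regulatory cells was below that in progenitors both before (13.0% against 17.9%) and after thinning (7.18% against 9.05%), so the shares set no order between these gates. The tests at 3000 UMIs per cell given below applied the gates again to the thinned counts. They therefore hold other sets of cells than these shares and do not change depth alone. Free RNA can put a Noct UMI into any droplet. The deposited barcodes with 500 or fewer detected genes numbered 352, 176 and 565 in mice 1, 2 and 3 and held 235332, 141831 and 396473 UMIs. They may be poor cells rather than empty droplets, so they do not measure free RNA. In them, Noct was at 72.2, 21.2 and 58.0 CPM in mice 1, 2 and 3, from 17, 3 and 23 UMIs. These levels were below those of the preadipocytes of the same mouse, and above those of the progenitors in mice 1 and 3. The part of free RNA in the progenitor level was not tested.

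Among all 10 members, 8 passed the test between preadipocytes and progenitors, where 56.4% of the 13258 genes tested did. A count of 8 of 10 is thus read against a large background. Noct, Per2 and Dbp were higher in preadipocytes, as were 27.2% of all genes, and Per1, Nr1d1, Cry2, Arntl and Clock were lower, as were 29.2%. The median log2 fold change of the members was -0.13, and it was 0.00 over all genes tested. Leaving out the mouse as a block gave 6 members and 3996 genes in place of 7472, with Clock (adjusted p = 0.261, edgeR) and Dbp (adjusted p = 0.189, edgeR) lost.

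Arntl and Clock, the activators of the loop, were both highest in progenitors. Arntl (chromosome 7, 113207465 to 113314126) was at 63.2, 60.9 and 84.6 CPM in the progenitors of mice 1, 2 and 3. It was at 39.8, 36.4 and 52.5 CPM in their preadipocytes, and the gates did not overlap. The log2 fold change was -0.75 (± 0.0598 SE, edgeR adjusted p = 3.96e-07). In regulatory cells Arntl was lower still, at 26.0, 31.1 and 38.2 CPM, which differed from progenitors by -1.10 on the log2 scale (± 0.0866 SE, edgeR adjusted p = 7.93e-07). The difference between regulatory cells and preadipocytes was smaller (log2 fold change -0.35, adjusted p = 0.0148, edgeR), and it missed the threshold without mouse 1 (adjusted p = 0.102, edgeR) or mouse 3 (0.106), at 3000 UMIs per cell (0.282) and with no block (0.370). An exon of Gm45355 overlaps Arntl on the other strand, and since the use of strand in counting is not stated, a share of its UMIs could belong to that gene.

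Clock, the partner of Arntl, differed less. It was at 76.5, 52.2 and 81.6 CPM in progenitors, 62.9, 45.5 and 67.3 CPM in preadipocytes and 69.5, 47.6 and 58.9 CPM in regulatory cells. Mouse 2 was lowest in each gate and the gates overlapped, while within each mouse the progenitors were highest. The change was -0.31 for preadipocytes (± 0.0671 SE, edgeR adjusted p = 0.00178) and -0.25 for regulatory cells (± 0.0875 SE, edgeR adjusted p = 0.0355), both against progenitors on the log2 scale. The regulatory value missed the threshold without any 1 of the 3 mice, with adjusted p between 0.0629 and 0.295 (edgeR), in DESeq2 (0.0788), at 3000 UMIs per cell (0.339, edgeR) and with no block (0.380, edgeR).

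The 3 Period genes, repressors of the loop, went different ways. Per1 (chromosome 11, 69095217 to 69109960), the member whose promoter held both an E-box and a half-site, was at 59.2, 56.3 and 64.0 CPM in progenitors. It was at 22.2, 23.7 and 29.2 CPM in preadipocytes and at 30.2, 30.8 and 25.8 CPM in regulatory cells. Progenitors thus stood above both other gates in every mouse, with log2 fold changes of -1.32 for preadipocytes (± 0.0793 SE, edgeR adjusted p = 3.03e-08) and -1.03 for regulatory cells (± 0.113 SE, edgeR adjusted p = 1.38e-05). Between regulatory cells and preadipocytes Per1 did not pass (adjusted p = 0.122, edgeR), and the levels overlapped.

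Per2 (chromosome 1, 91415982 to 91459324) showed the opposite order at a lower level. It was at 7.27, 9.70 and 7.18 CPM in progenitors and at 13.6, 15.6 and 19.5 CPM in preadipocytes, with no overlap. The log2 fold change was 0.96 (± 0.136 SE, edgeR adjusted p = 6.82e-05). Regulatory cells, at 9.83, 14.3 and 10.3 CPM, lay above the progenitors of each mouse, but the change of 0.54 on the log2 scale did not pass (± 0.207 SE, edgeR adjusted p = 0.0513). Per3, the gene with the pair of D-boxes, was at 6.68, 6.31 and 5.75 CPM in progenitors, 6.09, 7.93 and 6.34 CPM in preadipocytes and 3.51, 5.14 and 4.13 CPM in regulatory cells. The regulatory levels were below both other gates in each mouse, yet neither difference passed (adjusted p = 0.0926 against progenitors and 0.0997 against preadipocytes, edgeR). Only 5, 19 and 8 regulatory cells of mice 1, 2 and 3 held a Per3 UMI.

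The 2 Cryptochrome genes, which encode the partners of the Period proteins, also differed from each other. Cry2 (chromosome 2, 92403646 to 92434043) was at 73.7, 67.2 and 83.3 CPM in progenitors. It was at 40.6, 36.4 and 46.3 CPM in preadipocytes and at 30.2, 33.3 and 40.8 CPM in regulatory cells. Progenitors did not overlap with either gate, with log2 fold changes of -0.92 for preadipocytes (± 0.0582 SE, edgeR adjusted p = 4.93e-08) and -1.09 for regulatory cells (± 0.0820 SE, edgeR adjusted p = 5.65e-07). An exon of D930015M05Rik lies on the other strand of Cry2, with the same limit as for Arntl. Cry1, whose promoter held an E-box and an E′-box, was at 17.6 to 27.8 CPM over all 9 sums, the gates overlapped, and its adjusted p was 0.458, 0.643 and 0.984 (edgeR) in the 3 comparisons of gates.

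Nr1d1 and Dbp, clock outputs that follow the activator closely in other tissues, were near the limit of detection. Nr1d1 was at 2.88, 2.29 and 2.92 CPM in progenitors and at 0.54, 1.04 and 1.62 CPM in preadipocytes, which rests on 10, 19 and 22 UMIs. The gates did not overlap, and the log2 fold change was -1.44 (± 0.278 SE, edgeR adjusted p = 0.000797). The regulatory sums held only 4, 5 and 6 UMIs. Exons of Nr1d1 overlap those of Thra on the other strand, and Thra, at 157 ± 22.9 CPM in progenitors and 114 ± 15.4 CPM in preadipocytes (SD, n = 3 mice), was far above it, so Nr1d1 is uncertain.

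Dbp was at 3.16, 4.59 and 2.93 CPM in progenitors and at 4.29, 7.99 and 4.13 CPM in preadipocytes, higher in each mouse with overlap between mice. The log2 fold change was 0.54 (± 0.151 SE, edgeR adjusted p = 0.00901), and it missed the threshold without mouse 2 (adjusted p = 0.124, edgeR) and at 3000 UMIs per cell (0.101). In regulatory cells Dbp was at 4.91, 4.06 and 2.58 CPM and passed in neither comparison. Only 7, 15 and 5 of these cells held a Dbp UMI, so little can be read from this. Dbp shares an exon region with Sphk2 on the other strand.

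**Figure D2:**
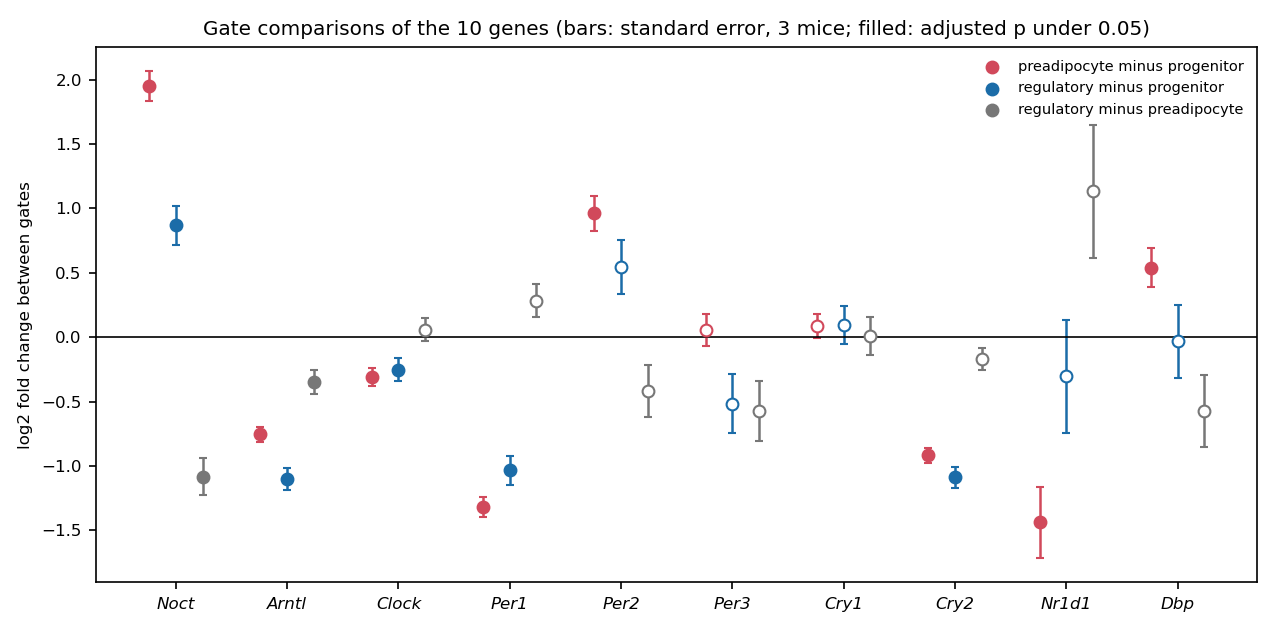
Log2 fold change (y axis) of the 10 genes in the 3 comparisons of gates. Bars are 1 standard error derived from the edgeR test, not the spread between mice, and filled points mark an adjusted p under 0.05. Noct lies at 1.95 and 0.87 against progenitors, while Arntl, Per1 and Cry2 lie between -0.75 and -1.32 in the same comparisons.

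In regulatory cells against progenitors, 5 of the 10 members passed, where 42.9% of all genes did. Noct was higher, as were 18.9% of all genes, and Arntl, Cry2, Per1 and Clock were lower, as were 24%. In regulatory cells against preadipocytes, Noct and Arntl passed and both were lower, 2 of 10 beside 25.7% of all genes in either direction and 13.4% that were lower. The first comparison and the preadipocyte one share the progenitor sums, so that their values for the members stand side by side and are not independent.

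Of 23 other clock genes, 22 were in the files and 21 were tested between preadipocytes and progenitors. Of these, 7 were higher and 10 lower in preadipocytes, beside 27.2% and 29.2% of all genes, and the median log2 fold change was -0.13. The largest changes were in Rorb, Timeless, Usp2, Ciart and Nr1d2. Rorb, a nuclear receptor that acts on the same half-site as Nr1d1, fell from 50.2 ± 4.07 CPM in progenitors to 5.09 ± 0.91 CPM in preadipocytes (log2 fold change -3.37, adjusted p = 5.21e-11, edgeR). Nr1d2, the close relative of Nr1d1, fell from 19.8 ± 7.17 to 5.64 ± 1.02 CPM (log2 fold change -1.82, adjusted p = 2.71e-07, edgeR).

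Usp2, a ubiquitin protease that acts on clock proteins, fell from 104 ± 17.5 to 25.6 ± 6.16 CPM (log2 fold change -2.09, adjusted p = 5.35e-10, edgeR). Ciart, an inhibitor of the activator complex, was at 1.18 ± 0.299 CPM in progenitors and 0.298 ± 0.137 CPM in preadipocytes (log2 fold change -2.04, adjusted p = 0.000362, edgeR). It was thus below Nr1d1 in both gates (means of 2.70 and 1.07 CPM) and near the limit of detection. Timeless rose from 1.01 ± 0.139 to 6.42 ± 0.754 CPM (log2 fold change 2.61, adjusted p = 7.94e-08, edgeR). In mammals this gene also serves replication forks, and cycling markers summed to 3.31, 14.8 and 12.7 CPM in the preadipocytes and 6.36, 12.1 and 3.58 CPM in the progenitors of mice 1, 2 and 3. The part of cycling cells in the Timeless value was not tested.

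**Figure D3:**
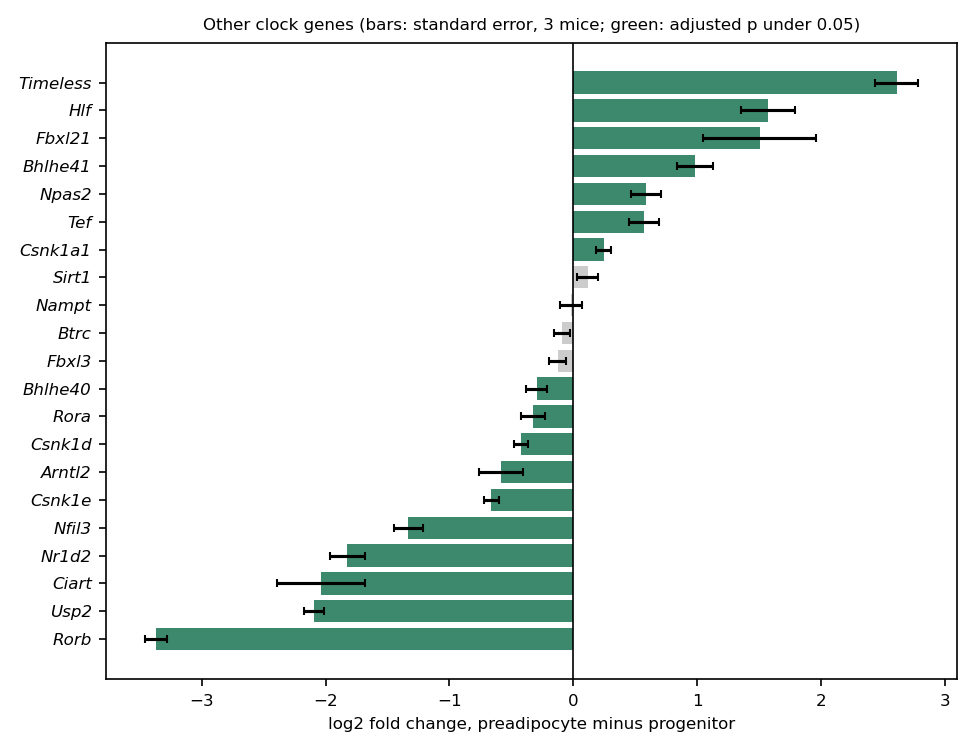
Log2 fold change (x axis) between preadipocytes and progenitors for the 21 other clock genes tested. Bars are 1 standard error derived from the edgeR test, not the spread between mice, and green marks an adjusted p under 0.05. The changes run from -3.37 for Rorb to 2.61 for Timeless, with 10 genes lower and 7 higher.

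A list of 15 genes held the endonuclease-exonuclease-phosphatase family of Noct, subunits of the CCR4-NOT complex, and Nadk and Nadk2, NAD kinases outside both. Of these, 2 were higher and 5, Nadk among them, lower in preadipocytes than in progenitors, beside 27.2% and 29.2% of all genes. The share called was thus below the 56.4% of all genes. Pde12, a mitochondrial deadenylase, was at 44.6 ± 10.2 against 16.3 ± 1.29 CPM (log2 fold change 1.39, adjusted p = 5.09e-07, edgeR). Cnot6, a catalytic deadenylase of the complex, was at 46.1 ± 6.22 against 89.7 ± 10.4 CPM (log2 fold change -1.02, adjusted p = 1.60e-08, edgeR). The median log2 fold change of this list was -0.15.

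Per1 and Noct are also known to respond to acute stimuli, so immediate early genes and glucocorticoid-response genes were read beside them. Summed, 24 immediate early and dissociation-response genes stood at 21875 to 25374 CPM in progenitors, 29475 to 36391 CPM in preadipocytes and 28640 to 32420 CPM in regulatory cells. Of the 24 genes, 15 were higher and 6 lower in preadipocytes than in progenitors, where 27.2% and 29.2% of all genes were. Egr3 was higher (79.6 ± 26.6 against 13.2 ± 1.92 CPM) while Nr4a3 was lower (29.2 ± 10.5 against 375 ± 69.1 CPM). Of 11 glucocorticoid-response genes, 5 were higher, among them Sgk1 (log2 fold change 1.46) and Tsc22d3 (1.03), and 4 were lower, among them Errfi1 (log2 fold change -2.21), read against the same shares of all genes. The part of dissociation in the levels of Noct and Per1 was not tested.

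Over the 9 sums of 3 gates and 3 mice, the genes most like Noct were sought by Pearson's r of log2(CPM + 1) among 2780 genes with a mean of at least 50 CPM, without the gating genes. The closest were Sept11 (r = 0.98), Itpripl2 (0.98), Slfn5 (0.97), Rnf19b (0.96) and Gadd45b (0.96). These values describe 9 sums that share 3 libraries and the gates. Sept11, a septin, was at 134 ± 31.2 CPM in preadipocytes, 45.3 ± 14.4 CPM in regulatory cells and 24.2 ± 5.97 CPM in progenitors (SD, n = 3 mice). Among the members, r with Noct was 0.75 for Per2 and -0.80 for Per1, and it lay between -0.58 and 0.22 for the others.

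Noct also varied among preadipocytes. Cells with at least 2 UMIs of Cd44, a hyaluronan receptor that the study used to divide preadipocytes, were compared with those without a Cd44 UMI. Noct was at 233, 174 and 211 CPM in the first and at 91.0, 57.8 and 119 CPM in the second, in mice 1, 2 and 3, with no overlap. The study named Noct beside Cd44 as a marker on these same libraries, so its levels are given as a description, with no test. Arntl (log2 fold change 0.37, adjusted p = 0.00837, edgeR) and Per2 (0.49, adjusted p = 0.0377) were higher, and Dbp was lower (-0.94, adjusted p = 0.0256). Of the 8 other members tested 3 passed, where 18.1% of all genes did (12.2% higher and 5.86% lower), and Nr1d1 did not pass the filter on low counts. Cells with 2 Cd44 UMIs were deeper, with median depths of 8861.5, 13729 and 7578.5 UMIs against 7863, 12606.5 and 7118. Per2 and Dbp missed the threshold without mouse 2, and Arntl, Per2 and Dbp without mouse 3. DESeq2 called neither Arntl nor Per2 and gave no adjusted p for Dbp. Without the mouse as a block none of them passed (edgeR).

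The cells of each gate were then divided by their own Noct UMIs, to see which members went along with Noct from cell to cell. Preadipocytes with at least 2 Noct UMIs (504, 391 and 465 cells) were compared with those that had none (1311, 775 and 956 cells). Arntl was at 46.8, 46.2 and 65.1 CPM in the first and at 37.2, 29.6 and 46.7 CPM in the second, higher in each mouse. Cry2 was at 53.4, 48.5 and 55.8 CPM against 35.7, 27.0 and 40.6 CPM, with no overlap. Both had been lower in preadipocytes than in progenitors, so that within preadipocytes they went with Noct and between these gates they went against it. Against preadipocytes, regulatory cells had Noct, Arntl and Cry2 all lower in each mouse (log2 fold change -1.08, -0.35 and -0.17). Of these, Cry2 did not pass (adjusted p = 0.223, edgeR).

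The log2 fold change was 0.60 for Arntl (± 0.0964 SE, edgeR adjusted p = 0.00489) and 0.74 for Cry2 (± 0.104 SE, edgeR adjusted p = 0.00269). Per3 was lower, at 3.84, 5.77 and 2.80 CPM against 7.93, 9.19 and 8.79 CPM. Its log2 fold change was -0.90 (± 0.232 SE, edgeR adjusted p = 0.0321), with no overlap, but the sums of cells with Noct held 17, 32 and 10 UMIs. The call of Per3 was lost without mouse 1 (adjusted p = 0.0978, edgeR) or mouse 3 (0.105). These were 3 of 8 members tested, beside 16.1% of all genes (10.7% higher and 5.46% lower), and Nr1d1 did not pass the filter. Clock did not pass (log2 fold change 0.00, adjusted p = 0.985, edgeR). Cells with Noct were slightly deeper, with medians of 8574.5, 13168 and 7560 UMIs against 7804, 12826 and 7093.5. Cycling markers summed to 0.452, 36.6 and 21.9 CPM in the cells with Noct and to 5.75, 6.95 and 1.06 CPM in those without, and their part in these differences was not tested.

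**Figure D4:**
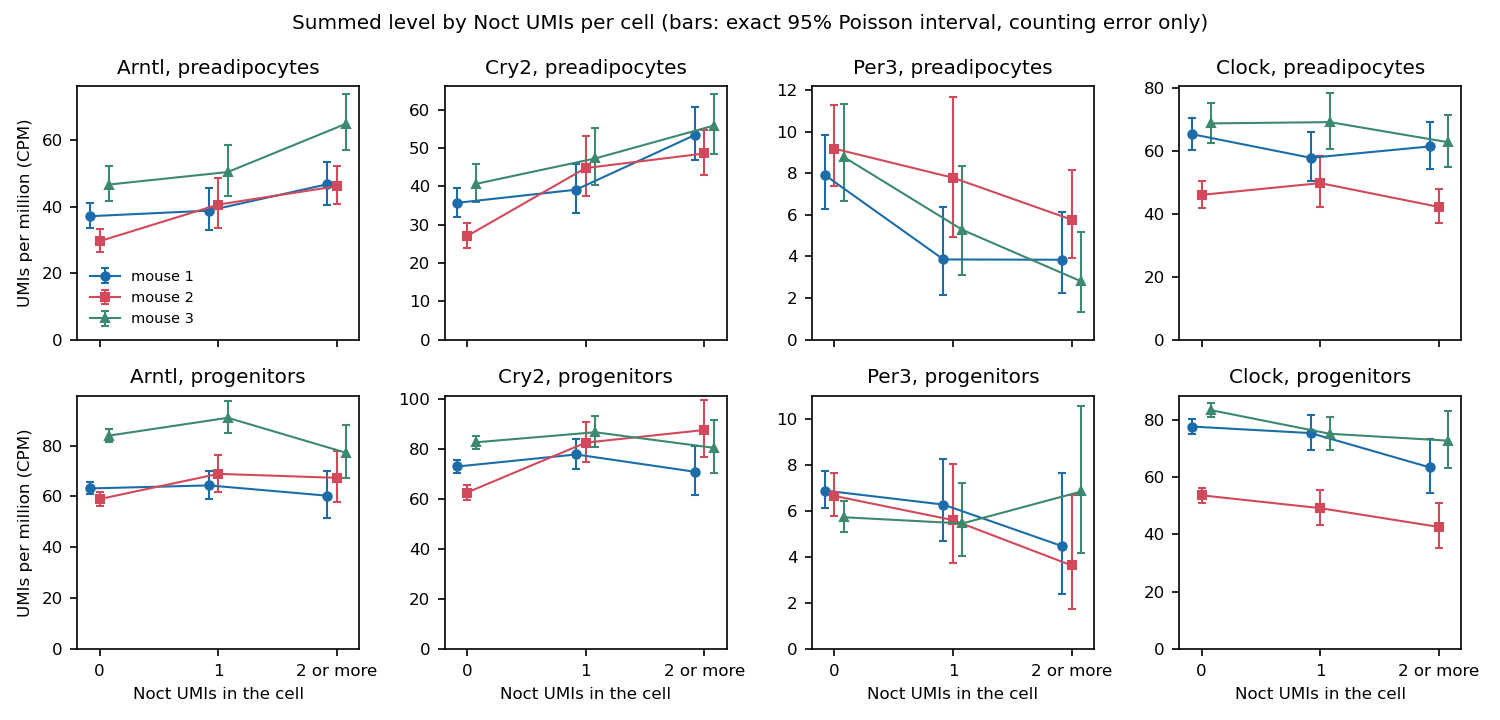
Level of Arntl, Cry2, Per3 and Clock (y axis, CPM) in preadipocytes (top) and progenitors (bottom) with 0, 1 and 2 or more Noct UMIs (x axis), by mouse, with exact 95% Poisson intervals that cover counting error only. In preadipocytes Cry2 reached 48.5 to 55.8 CPM at 2 or more Noct UMIs from 27.0 to 40.6 CPM at 0, and in progenitors it was lower at 2 or more Noct UMIs than at 0 in mice 1 and 3 and higher in mouse 2.

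Cells with exactly 1 Noct UMI lay between the others for Cry2, at 39.1, 44.7 and 47.2 CPM in mice 1, 2 and 3. For Arntl they were at 38.8, 40.7 and 50.5 CPM, also between them in each mouse. In progenitors the same division gave no member past the threshold among 9 tested, where 4.06% of all genes (505) passed in edgeR, 3.08% higher and 0.98% lower. At an unadjusted p under 0.05 it gave 1 member (Clock) and 2061 genes, and DESeq2 also called no member. Arntl was at 60.3, 67.3 and 77.1 CPM in progenitors with at least 2 Noct UMIs and at 63.2, 59.0 and 84.0 CPM in those with none. The difference between the preadipocyte and the progenitor effect was itself tested. It was 0.55 for Arntl (± 0.138 SE, edgeR adjusted p = 0.0783) and 0.56 for Cry2 (± 0.175 SE, edgeR adjusted p = 0.150), so the effects were not shown to differ. With no filter on low counts both passed (adjusted p = 0.00275 and 0.00212, edgeR). No member passed this test, in which 0.676% of all genes passed (0.414% higher and 0.262% lower), and 3 members had an unadjusted p under 0.05. In regulatory cells the division left as few as 12 cells with 2 Noct UMIs in a mouse and was not tested.

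Both divisions pick cells by their own counts, and the Cd44 and Noct divisions of preadipocytes overlap. Without the mouse as a block, no gene passed in the Noct division of preadipocytes (1461 at an unadjusted p under 0.05), against 1817 with it in edgeR and 706 in DESeq2.

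Other genes that changed most with Noct in preadipocytes were named by a rule on size and level. Cxcl2, a neutrophil chemokine, stood at 56.0 ± 18.8 CPM with Noct and 13.6 ± 12.9 CPM without (log2 fold change 2.36, adjusted p = 0.000964, edgeR). Fosl1, an AP-1 subunit, stood at 57.1 ± 23.4 against 13.7 ± 11.6 CPM (log2 fold change 2.32, adjusted p = 0.00245, edgeR). Ptx3, a secreted pentraxin, stood at 1657 ± 124 against 442 ± 200 CPM (log2 fold change 2.11, adjusted p = 0.000922, edgeR). Ifit1, an interferon-induced gene, and Cited1, a transcriptional co-regulator, rose by 2.01 and 1.84 on the log2 scale.

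Among the genes that fell, Txnip, an arrestin-like regulator of glucose uptake, stood at 428 ± 127 CPM with Noct and 1538 ± 91.5 CPM without (log2 fold change -1.78, adjusted p = 0.000681, edgeR). G0s2, an inhibitor of the triglyceride lipase, stood at 110 ± 6.10 against 327 ± 97.5 CPM, and Hes1, a Notch target, at 68.2 ± 5.13 against 191 ± 78.9 CPM. Hspb1, a small heat shock protein, and Swt1 fell by 1.21 and 1.44 on the log2 scale. Among 19 other clock genes tested here, Bhlhe40, a repressor at E-boxes (log2 fold change 0.77), Nampt, an NAD salvage enzyme (0.77), Csnk1a1 (0.58) and Csnk1d (0.41), kinases of the casein kinase family, were among 5 that were higher, beside 10.7% of all genes. Tef, a D-box factor related to Dbp, was the 1 that was lower, beside 5.46% of all genes (log2 fold change -0.56, adjusted p = 0.0446, edgeR). All 5 markers with which the study divided its Icam1 cells passed, Ptx3, Cd44 and Mt2 higher and Txnip and G0s2 lower, a list chosen on these samples and so no independent evidence. Of the 24 immediate early genes 3 were higher and 9 lower, beside the same 10.7% and 5.46% of all genes, and their sum was 24880 to 31420 CPM with Noct and 31917 to 38585 CPM without.

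Among progenitors, the 5 largest rises were in genes that are not among the 5 of preadipocytes. Sparcl1 and Col15a1, matrix genes, rose by 1.72 and 1.57 on the log2 scale, Adamts4, a matrix protease, by 1.72, Timp1, a protease inhibitor, by 1.51, and Cxcl14, a chemokine, by 1.48. Adamts4 and Timp1 also rose with Noct in preadipocytes, by 1.75 and 1.69 (edgeR adjusted p = 0.000681 and 0.000922). Conversely, of the 5 largest rises of preadipocytes, Ptx3 and Ifit1 also rose in progenitors, by 0.88 each (edgeR adjusted p = 0.00342 and 0.0352). Cxcl2, Fosl1 and Cited1 did not pass in progenitors. The full marker lists are given beside this, with the gating genes and, among the preadipocyte markers, Col15a1 itself. Preadipocyte markers summed to 1840, 1065 and 1274 CPM in progenitors with at least 2 Noct UMIs and to 1016, 735 and 722 CPM in those with none. Progenitor markers summed to 5764 to 6404 against 7661 to 8296 CPM, and cycling markers to 26.2, 76.1 and 1.71 against 5.94, 5.49 and 4.13 CPM. Mural markers summed to 41.7, 2.18 and 4.11 against 3.13, 3.09 and 4.59 CPM, and median depths were 8544, 14441 and 7647 against 7204.5, 11862 and 6560.5 UMIs. Their part in these changes was not tested. Txnip fell here too (log2 fold change -0.91, adjusted p = 0.0253, edgeR), as did Edn1 (-0.91), Chst1 (-0.82), Itgb7 (-0.82) and Sbsn (-0.70). Hspb1 also fell in progenitors (-0.58, adjusted p = 0.0232, edgeR), while Swt1, G0s2 and Hes1 did not pass. Of the study's 5 markers of its Icam1 cells, 3 were higher and 1 was lower with Noct in progenitors, beside 3.08% and 0.98% of all genes. Of 20 other clock genes tested in progenitors, 2 were higher and 1 lower, beside 3.08% and 0.98% of all genes. Over the settings run, the log2 fold changes were 0.38 to 0.63 for Bhlhe40, 0.24 to 0.33 for Csnk1a1 and -0.70 to -0.59 for Rorb. Without the mouse as a block 0 genes passed in this division, so no gene at all could keep an adjusted p under 0.05 in every setting.

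A pair of divisions chosen after their values were seen are given without a test. Preadipocytes with a Cxcl9 UMI had Noct at 154 ± 9.68 CPM against 115 ± 27.0 CPM in those without (SD, n = 3 mice). Progenitors with at least 2 UMIs of Nr4a3 and Fosl1 together had Cry2 at 84.3, 80.4 and 89.8 CPM in mice 1, 2 and 3, against 57.9, 44.1 and 65.1 CPM in those with none. Per1 was at 68.2 CPM in each mouse, against 45.9, 36.7 and 58.1 CPM. Both stood higher in each mouse with no overlap, but the share of all genes that did so was not counted. Depth was not matched between these groups. Noct was at 36.9, 29.1 and 34.1 CPM against 31.3, 10.9 and 33.4 CPM, a difference that lay mainly in mouse 2.

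Finally, the mice were compared with each other, with 1 library each and therefore no test. Over all kept cells, 7 of the 10 members were at 10 CPM or more. Of these only Clock differed by at least 1.5-fold between the highest and the lowest mouse (77.0 CPM in mouse 3 and 49.1 CPM in mouse 2, a ratio of 1.57), where 25% of all genes at that level did. Within gates, this held for 1 of 6 members in progenitors (Clock, 23.8% of all genes), 0 of 7 in preadipocytes (25.5%) and 1 of 7 in regulatory cells (Noct, 33.8%). Dbp, below that level, was at 5.61 CPM in mouse 2 and 3.00 CPM in mouse 3, a ratio of 1.87. Over all kept cells, mouse 2 was lowest for Noct, Arntl, Clock, Per1, Cry2 and Nr1d1 and highest for Per2, Per3 and Dbp. The mice differed in their mix of gates, with 7399, 3169 and 9273 progenitors among 12984, 6414 and 15179 kept cells. The part of this mix was not tested. Within preadipocytes, Per1 and Nr1d1 were lowest in mouse 1 and Per2 highest in mouse 3. Within regulatory cells, Per1 was highest in mouse 2. Mouse 2 was also the library with the deepest and fewest cells and the highest glucocorticoid-response sum in progenitors, 11193 CPM beside 7580 and 9232 CPM in mice 1 and 3. No member had the same highest and the same lowest mouse in all 3 gates.

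**Figure D5:**
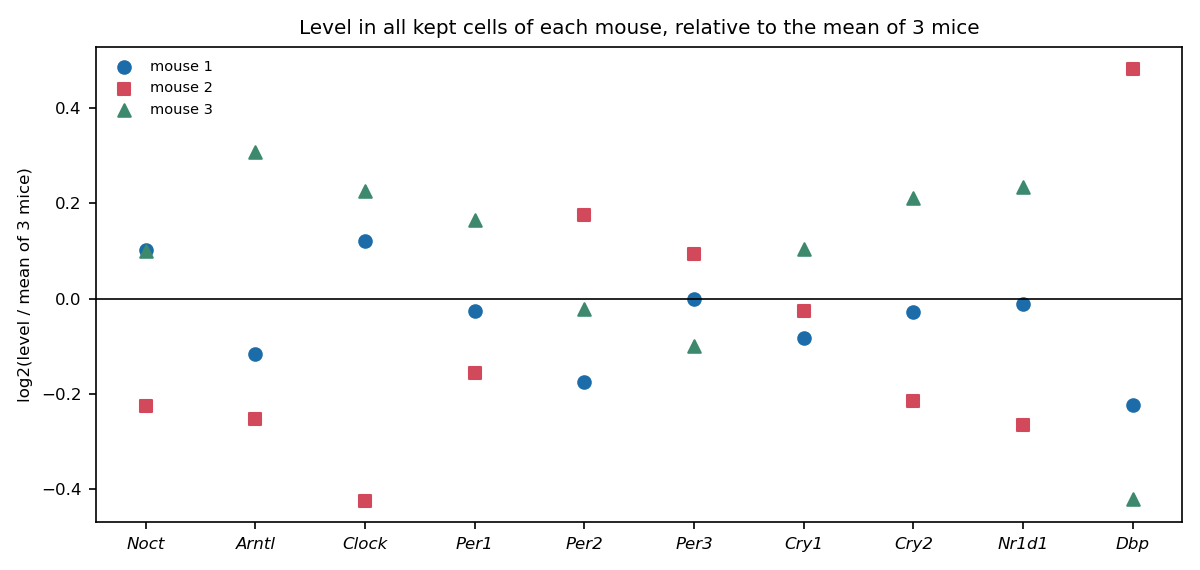
Level of the 10 genes over all kept cells of each mouse, as log2 of the ratio to the mean of 3 mice (y axis), with 1 point per mouse. Mouse 2 lies lowest for Clock, at 49.1 CPM, and highest for Dbp, at 5.61 CPM. The mix of gates, which differed between mice, was not adjusted for.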

How the data were processed

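Per the labels, cells were processed with the 10x Genomics 3′ v2 protocol. The authors' deposited values are raw UMI counts per gene and barcode, made with Cell Ranger, which the submitters' processing notes give as version 2.1.1 with mm10 and the file header as 4.0.0, while the study's methods state a later release than either. Gene positions are from GENCODE M21 (GRCm38), in which 32158 of 32285 gene identifiers were found. A cell was kept at more than 500 genes and under 5% of UMIs from mitochondrial genes (12984, 6414 and 15179 cells with 94816520, 78108414 and 99328725 UMIs). Cells that met 2 gates (49, 119 and 96) were left out, and doublets were not removed.

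Counts were summed per mouse and gate, and tested in edgeR 4.0.16 (R 4.3.3, filterByExpr, TMM, quasi-likelihood, mouse as a block, FDR 0.05 over all genes tested). The gating genes, and the gene that made a division, were in the adjustment but were left out of the counts of genes called. Per-mouse differences used log2(CPM + 1). Intervals are exact 95% Poisson or binomial and cover counting error only. Sums of the same mouse come from 1 animal, and it was checked that they deviate together (Pearson's r of 0.42 to 0.84 over 7681 genes, which are not independent replicates). Run on simulated counts, the edgeR fit made false calls that exceeded the nominal 5% in both comparisons simulated (preadipocytes against progenitors, and the Noct division of preadipocytes), so adjusted p-values near the threshold are less certain than stated. The simulation changed a far smaller share of genes than the 56.4% and 16.1% that passed in the data. The size of the excess therefore need not carry over. DESeq2 1.42.0 was an alternative.

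The members and the lists were chosen with earlier results of these data known. Named genes are the members, up to 5 genes per list with the largest change past the threshold that moved one way in all 3 mice, the 5 most like Noct, and in each Noct division the 5 largest rises and falls at 50 CPM or more in 1 of its groups. Figures were drawn with matplotlib 3.10.9.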

Additional observations from a re-analysis of the deposited data

Results flagged for a closer look

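The following 6 genes changed differently with Noct in preadipocytes than in progenitors, by a test of the difference itself (an interaction over 12 sums, edgeR). The difference of the log2 fold changes was 2.43 for Cxcl2 (adjusted p = 0.0111, edgeR), 2.08 for Fosl1 (0.0313) and -1.49 for Hes1 (0.0111), which changed in preadipocytes. It was -1.66 for Sparcl1 (adjusted p = 0.00758, edgeR), -1.44 for Col15a1 (0.0111) and -1.79 for Cxcl14 (0.0111), which rose in progenitors. Under the other settings run, only Cxcl2 of these 6 kept an adjusted p under 0.05 throughout (at most 0.0473, edgeR). The highest adjusted p was 0.143 for Fosl1, Hes1 and Sparcl1, 0.186 for Col15a1 and 0.224 for Cxcl14 (edgeR). In all 80 genes passed, and 1 passed without mouse 3. None of the 9 members tested was among the 80 genes.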

How the results depend on the processing

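Without the mouse as a replicate block, the genes called numbered 3996 for preadipocytes against progenitors, 3130 for regulatory cells against progenitors and 1531 for regulatory cells against preadipocytes. They numbered 1 for the Cd44 division and 0 for both Noct divisions. The members called were then 1 for regulatory cells against preadipocytes, 0 for the Cd44 division and 0 for the Noct division of preadipocytes. With the block they were 2, 3 and 3, where Noct was left out of the Cd44 division. The causes of these changes were not tested. At 3000 UMIs per cell, 3307 genes passed for regulatory cells against progenitors and 1840 genes with 1 member for regulatory cells against preadipocytes. In these tests the gates were applied again to the thinned counts, so the cells of each gate changed along with the depth. The shares of cells with Noct at 3000 UMIs, in the gates of the full counts, were 7.70, 24.5 and 12% in progenitors, preadipocytes and regulatory cells. This depth left under 50 cells in a sum of the Cd44 and Noct divisions, which were not run. DESeq2 called 750 genes in the Cd44 division and 706 and 317 genes in the Noct divisions of preadipocytes and progenitors. Without a filter on low counts, 996 genes passed in progenitors and 725, with 2 members (Arntl and Cry2), in the test of the difference.

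Leaving out 1 mouse gave 2053 to 2800 genes and 1 to 2 members for regulatory cells against preadipocytes, 1059 to 2231 genes and 2 to 4 members for the Cd44 division, 153 to 731 genes for progenitors (153 without mouse 1), and 1 to 53 genes for the test of the difference. This range for the Cd44 division counts Noct, with which 4 members passed in all 3 mice together. In preadipocytes alone 0 members differed between mice by 1.5-fold.

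Signs turned only for members that had not passed. Leaving out 1 mouse gave log2 fold changes of -0.0531 to 0.22 for Per3 between preadipocytes and progenitors. Between regulatory cells and progenitors these were -0.19 to 0.26 for Dbp, -0.53 to 0.0153 for Nr1d1 and -0.0417 to 0.29 for Cry1, and between regulatory cells and preadipocytes -0.15 to 0.25 for Cry1 and -0.0025 to 0.15 for Clock. In the Noct division of preadipocytes they were -0.0424 to 0.0061 for Clock, -0.11 to 0.0578 for Cry1 and -0.0805 to 0.29 for Per2, and in that of progenitors -0.0772 to 0.10 for Arntl and -0.0211 to 0.26 for Cry2. Dbp between regulatory cells and progenitors was 0.0158 in DESeq2 and 0.11 with no block. At 3000 UMIs Nr1d1 was 0.33 in that comparison and Per2 was 0.17 between regulatory cells and preadipocytes. Cry1 in the latter was -0.0187 without endothelial cells (a setting chosen after seeing the data), -0.0374 by library size only, -0.0015 at a mitochondrial limit of 10%, -0.0240 with no filter, -0.0028 with no block and -0.0298 without the top 5% of cells by UMIs. In the Noct division of preadipocytes, Clock was 0.0019 in DESeq2, 0.0015 with RLE size factors and 0.0055 at the 10% limit, and Cry1 was 0.0098 without the top 5% of cells. Arntl in progenitors was -0.0047 by library size only. By library size only, the median of all genes in the Noct division of preadipocytes moved to -0.11.

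One library per mouse, 1 unknown time of day and sums of 10 UMIs or fewer for Nr1d1, Per3 and Dbp in the smallest groups limit what can be read from these genes.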
